A study of Mus musculus with 4 samples.

Results

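Collagen chain genes were followed in RNA sequencing libraries of fetal liver cells from mice labelled as hnRNP L knockouts (hnRNP L -/-, KO, n = 2) and mice labelled wild type (WT, n = 2). A gene was counted as a chain when its symbol was Col, digits, a, digits with nothing after, which gave 42 of the 22011 genes in the tables: 11 fibrillar chains, 6 basement membrane chains (Col4a1 to Col4a6) and 25 other chains. Each was represented by its transcript with most reads over the 4 libraries. HnRNP L (heterogeneous nuclear ribonucleoprotein L) binds pre-mRNA and acts in its splicing, and the series compared the knockout with the wild type. The husbandry text names CD45.1 mice, the reporter strain Gt(ROSA)26Sortm4(ACTB-tdTomato,-EGFP)Luo, LckCre transgenic animals (Cre under a promoter of T cells) and C57BL/6 mice, without saying which of them gave the fetal livers. The sources used here give no embryonic day, form of deletion or litter, and the p-values below speak only of the spread among 4 libraries, which may be technical.

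Collagens are the main structural proteins of the extracellular matrix. A chain winds with partner chains into a triple helix, and the helix needs glycine in a regular repeat of triplets, since only glycine is small enough to fit its core. Chains are hydroxylated and folded in the endoplasmic reticulum, secreted, trimmed, and cross-linked outside the cell. Fibrillar collagens form the banded fibres of connective tissue, type IV collagens form the sheet-like network of basement membranes, and the others decorate fibres, form microfilaments or span the cell membrane. In liver, stellate and endothelial cells are known sources of collagen, and fetal liver is also the organ in which blood cells form before birth.

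The glycine repeat of each class, the classes being set by gene symbol, was read from the coding sequences, in which glycine is encoded by GGN. In 41 of the 42 chains matched to GENCODE M21 coding sequences (Col12a1 was not matched), runs of at least 5 successive triplets led by a GGN codon were counted. The following stretches are the first 6 triplets of the longest run in the chains with the highest levels of their class and in Col1a1, 5′ to 3′, with the GGN codon that leads each triplet in capitals (a GGN codon at another place of a triplet stays in lower case).
Col1a1: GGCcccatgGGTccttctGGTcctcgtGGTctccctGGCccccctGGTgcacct
Col3a1: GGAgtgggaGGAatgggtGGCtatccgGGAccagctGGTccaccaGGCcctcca
Col4a1: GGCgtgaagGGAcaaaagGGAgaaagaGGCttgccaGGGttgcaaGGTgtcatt
Col18a1: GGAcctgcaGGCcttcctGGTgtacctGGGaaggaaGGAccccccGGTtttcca

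Fibrillar chains held an almost unbroken repeat, with a longest run of 216 to 344 triplets (median 338) and 2 to 3 runs in all. The 2 shortest were Col24a1 with 216 and Col27a1 with 217 triplets. In the 6 basement membrane chains the longest run was 39 to 66 triplets (median 43.5), and the repeat was split into 22 to 27 runs. The 24 other chains were mixed, with a longest run of 28 to 113 triplets (median 54) and 2 to 21 runs. The break that ends the longest run of Col4a1 is shown next. Capitals mark the codons that lead a triplet of a run, and 10 codons outside the repeat follow the last triplet of the first run (GGTgaaatt) up to the first triplet of the next run (GGGgagaga).
Col4a1 interruption: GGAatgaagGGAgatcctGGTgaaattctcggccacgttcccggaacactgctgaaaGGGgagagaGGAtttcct

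**Figure D1:**
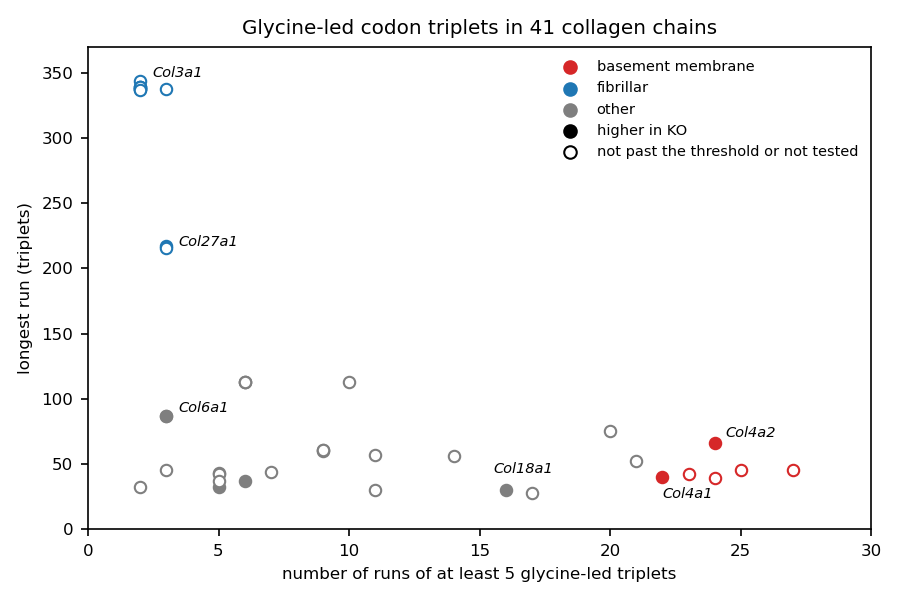
Number of runs of at least 5 glycine-led triplets (horizontal axis) against the longest run in triplets (vertical axis) in 41 collagen chains, coloured by class and filled where the chain was higher in KO. Fibrillar chains sit at 2 to 3 runs with a longest run of at least 216 triplets, and basement membrane chains at 22 to 27 runs with a longest run of at most 66.

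Mapped reads numbered 97490949 and 96260423 in the KO libraries and 70020061 and 111324295 in the WT libraries. Collagen chains took 0.161% and 0.185% of the reads on the transcripts used in KO, against 0.120% and 0.116% in WT. Levels are given as CPM (reads per 1e+06 reads on library sizes scaled by TMM, which corrects for composition), with fold changes of KO over WT. The targeted gene Hnrnpl stood at 280 and 269 CPM in KO and 460 and 603 CPM in WT, a fold of 0.516 (edgeR quasi-likelihood test, adjusted p = 0.0115), so its transcript was reduced but present. Alb, Afp and Alas2, which mark the hepatocytes and erythroblasts of fetal liver, were all detected in every library.

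Of the 42 chains, 37 passed the filter on low counts, and 9 of these were higher in KO at an adjusted p of 0.05 (24.3% of those tested), while 28 did not pass the threshold. The background was 11.4% of 15029 genes higher and 9.44% lower (20.8% called in either direction). The 9 were Col11a1 and Col27a1 among the fibrillar chains, Col4a1 and Col4a2 of the basement membrane, and Col18a1, Col14a1, Col6a1, Col6a2 and Col25a1 among the others. No chain was lower by edgeR or by the DESeq2 Wald test, and 0 were lower at an unadjusted p under 0.05. All 9 came from the 19 chains whose mean log2 CPM was 2 or more, and among all genes that deep 13.9% were higher. The median log2 fold change of the tested chains was 0.13, against 0.02 for all tested genes. Both KO libraries lay above both WT libraries in 15 of the 42 chains and below in 5, against 33.5% and 31.7% of all tested genes. Unlike that background, the chain counts include untested chains, namely Col6a4 (above) and Col22a1 (below). Leaving out any 1 library lowered the count of higher chains, so the size of this list rests on all 4 libraries. Calls over all genes fell in each of these fits too, so the drop is not particular to the chains. In these bulk samples more cells of a type and more RNA per cell cannot be told apart.

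**Figure D2:**
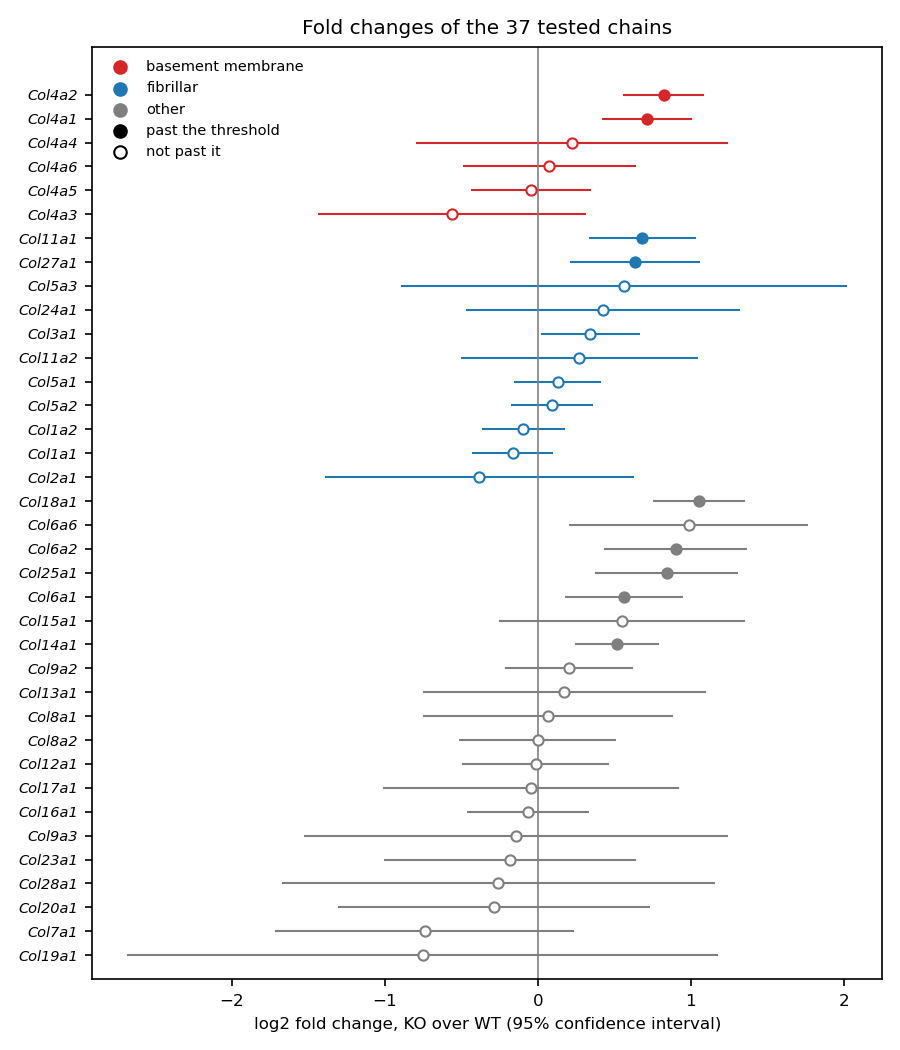
Log2 fold change of KO over WT with its 95% confidence interval (horizontal axis) for the 37 tested chains (rows), coloured by class, filled where the adjusted p of the edgeR test was under 0.05. Filled points lie to the right of 0 in every class, and the abundant fibrillar chains Col1a1, Col1a2, Col5a1 and Col5a2 lie close to 0.

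Col18a1 showed the largest fold of the 9 called chains. It encodes the chain of type XVIII collagen, a basement membrane heparan sulfate proteoglycan whose C-terminal fragment is endostatin, and lies at chr10:76514924-76576450 in the files' coordinates (their build is not stated, here and for all gene coordinates below). Its level was 280 and 267 CPM in the KO libraries, against 142 and 122 CPM in the WT libraries. Both KO values were well above both WT values. The fold was 2.07 (95% confidence interval 1.69 to 2.54; log2 1.05, SE 0.13; edgeR adjusted p = 0.00676). The call held without any 1 library (edgeR adjusted p of 0.00979 to 0.0232).

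Col4a1 and Col4a2 encode the chains of the most widespread type IV collagen, in which a pair of α1 chains joins an α2 chain. Col4a1 (chr8:11198423-11312826) had 236 and 242 CPM in KO, against 135 and 157 CPM in WT. Col4a2 (chr8:11312829-11449287) had 72.6 and 81.5 CPM in KO, against 43.2 and 43.8 CPM in WT. For both genes the KO and WT values did not overlap. The fold of Col4a1 was 1.64 (95% confidence interval 1.34 to 2.00; edgeR adjusted p = 0.0120) and that of Col4a2 was 1.77 (1.48 to 2.12; edgeR adjusted p = 0.00756). Without WT replicate 1 the adjusted p of Col4a1 was 0.0538, while Col4a2 passed without each library in turn.

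The 2 genes are neighbours on opposite strands and are read away from each other. Their promoter windows (250 bases before to 50 after the start, RefSeq, GRCm38.p6) are printed because both genes rose. In RefSeq their starts lie 21 bases apart, each just inside the 5′ end of the other gene, and the windows share 78 bases, given in capitals on the strand of each gene.
Col4a2 chr8:11312555-11312854, plus strand: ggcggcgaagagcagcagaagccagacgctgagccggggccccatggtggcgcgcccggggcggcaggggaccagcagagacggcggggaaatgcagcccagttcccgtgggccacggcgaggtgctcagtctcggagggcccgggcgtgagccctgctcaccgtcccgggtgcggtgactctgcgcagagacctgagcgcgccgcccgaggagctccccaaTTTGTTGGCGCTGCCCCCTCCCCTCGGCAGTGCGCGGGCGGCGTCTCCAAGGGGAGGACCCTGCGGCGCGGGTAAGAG
Col4a1 chr8:11312777-11313076, minus strand: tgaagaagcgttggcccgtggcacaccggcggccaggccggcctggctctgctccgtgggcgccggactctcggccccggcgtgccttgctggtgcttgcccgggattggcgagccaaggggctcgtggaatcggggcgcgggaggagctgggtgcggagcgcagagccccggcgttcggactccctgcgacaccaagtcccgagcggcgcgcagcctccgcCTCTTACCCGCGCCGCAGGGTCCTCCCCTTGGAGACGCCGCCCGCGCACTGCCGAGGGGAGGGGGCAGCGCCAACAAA

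The windows were rich in G and C (73.7% for Col4a2 and 74.0% for Col4a1, against a median of 52.7% over 32851 RefSeq windows). Searched on both strands, each whole window held CCAAT and GGGCGG (3 times in Col4a2 and 1 time in Col4a1) and neither held TATAAA. The shared stretch held GGGCGG 1 time, and the CCAAT of Col4a2 runs across its edge. Over all windows GGGCGG occurred in 35.7%, CCAAT in 37.4% and TATAAA in 13.6%, and in the 37 windows of 34 collagen chains in 62.2%, 35.1% and 13.5%.

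The other type IV chains did not pass the threshold. Col4a5 and Col4a6, which lie side by side on chromosome X and form networks of specialised basement membranes, had folds of 0.971 (95% confidence interval 0.744 to 1.27) and 1.05 (0.716 to 1.55). Col4a5 had 8.02 and 8.13 CPM in KO and 8.64 and 8.01 CPM in WT, and its groups overlapped. Col4a3 and Col4a4, the chains of the kidney glomerulus, were at 1.58 CPM or less in every library, and their folds were 0.678 and 1.17 with intervals that span 1.

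The most abundant fibrillar chains did not pass the threshold. Col3a1 (chr1:45368383-45406551), the homotrimeric collagen of reticular fibres, had 357 and 418 CPM in KO, against 316 and 295 CPM in WT. The KO values lay above the WT values, with a fold of 1.27 (95% confidence interval 1.02 to 1.58; edgeR adjusted p = 0.112). The type I chains form a heterotrimer of a pair of α1 chains and an α2 chain. Col1a1 (chr11:94797584-94813170) had 52.6 and 57.5 CPM in KO, against 64.2 and 59.3 CPM in WT. Col1a2 (chr6:4455697-4491543) had 116 and 124 CPM in KO, against 137 and 120 CPM in WT. Both KO values lay below both WT values for Col1a1 and overlapped them for Col1a2. Their folds were 0.892 (95% confidence interval 0.746 to 1.07; edgeR adjusted p = 0.319) and 0.936 (0.778 to 1.13; edgeR adjusted p = 0.588). The upper bounds of both intervals lie below the lower bounds of Col4a1 and Col18a1.

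Type V collagen nucleates type I fibrils, and its chains Col5a1 and Col5a2 had folds of 1.09 (95% confidence interval 0.903 to 1.33) and 1.06 (0.888 to 1.28). Their groups overlapped. Col11a1 (chr3:113733458-113923244), whose product is best known from the core of cartilage fibrils, had 18.2 and 21.0 CPM in KO, against 12.3 and 12.1 CPM in WT. Col27a1 (chr4:62876446-62996024), a fibrillar chain with a shorter helix, had 29.5 and 29.0 CPM in KO, against 22.3 and 15.4 CPM in WT. For both genes the KO values were above the WT values. The fold of Col11a1 was 1.60 (95% confidence interval 1.27 to 2.03; edgeR adjusted p = 0.0205) and that of Col27a1 was 1.55 (1.16 to 2.08; edgeR adjusted p = 0.0444). Col11a1 lost its call without KO replicate 2, WT replicate 1 or WT replicate 2 (edgeR adjusted p of 0.0747 to 0.0897), and Col27a1 without KO replicate 1, KO replicate 2 or WT replicate 2 (0.105 to 0.191). Of the 4 sparse fibrillar chains, Col24a1, Col11a2 and Col5a3 had folds of 1.34, 1.21 and 1.48, Col2a1, the main collagen of cartilage, had 0.766, and every interval spanned 1. Col2a1 stood at 0.585 and 0.527 CPM in KO and 0.650 and 0.792 CPM in WT.

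Among the other chains, the type VI chains Col6a1 and Col6a2 and the fibril-associated Col14a1 were also higher. Type VI collagen forms beaded microfilaments around cells, and its genes Col6a1 (chr10:76171537-76188789) and Col6a2 (chr10:76058501-76086149) are neighbours. Col6a1 had 37.5 and 48.8 CPM in KO, against 26.5 and 31.9 CPM in WT. Col6a2 had 20.7 and 28.2 CPM in KO, against 11.4 and 14.8 CPM in WT. KO replicate 2 was the highest library for both genes and WT replicate 1 the lowest, with no overlap of the groups. The fold of Col6a1 was 1.48 (95% confidence interval 1.14 to 1.92; edgeR adjusted p = 0.0466) and that of Col6a2 was 1.87 (1.36 to 2.57; edgeR adjusted p = 0.0219). Both calls were lost without KO replicate 2 (edgeR adjusted p = 0.207 and 0.0941) and without WT replicate 1 (0.181 and 0.0830). Col6a1 was also lost without WT replicate 2 (0.0646) and when the reads of all transcripts of a gene were summed (0.0514).

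Col14a1 (chr15:55139305-55352358), which encodes type XIV collagen on the surface of fibrils, had 175 and 196 CPM in KO, against 132 and 127 CPM in WT. The WT values were close to each other and both lay below the KO values. The fold was 1.43 (95% confidence interval 1.19 to 1.72; edgeR adjusted p = 0.0221), and the call was lost without KO replicate 2, WT replicate 1 or WT replicate 2 (edgeR adjusted p of 0.0713 to 0.102). Col25a1 (chr3:129883796-130299335) encodes a collagen anchored in the cell membrane, known from neurons. It had 7.27 and 7.10 CPM in KO, against 4.40 and 3.65 CPM in WT. Its groups did not overlap, with a fold of 1.79 (95% confidence interval 1.30 to 2.46; edgeR adjusted p = 0.0263), and the call was lost without KO replicate 1, KO replicate 2 or WT replicate 2 (0.0714 to 0.104).

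**Figure D3:**
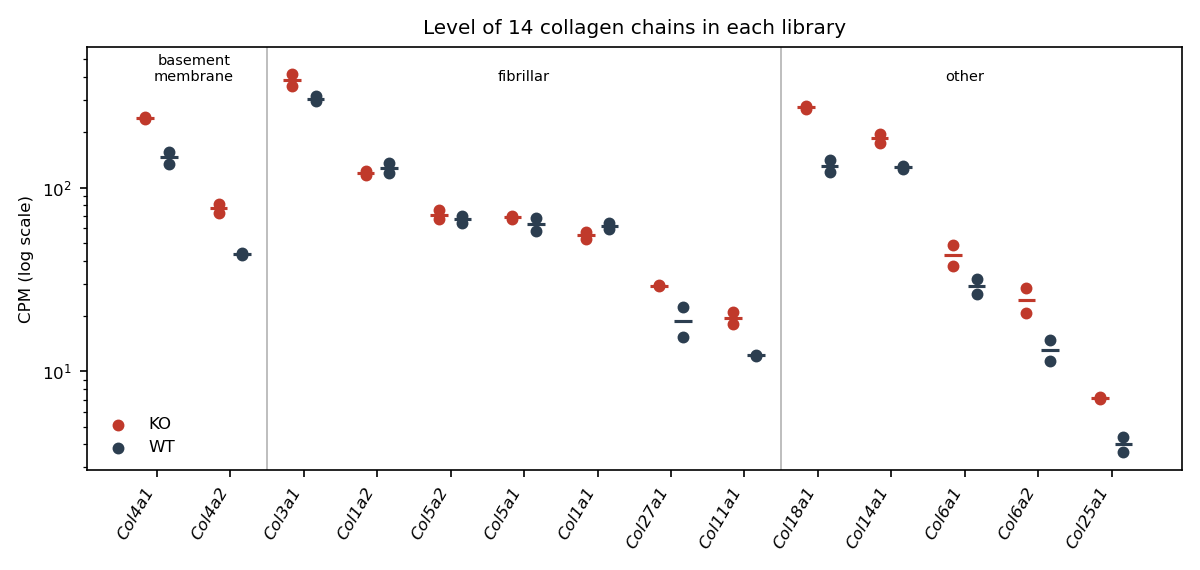
Level in CPM (log scale) of 14 collagen chains in each library, KO left of WT, with points for the 2 libraries of a genotype and a line at their mean. KO points lie above WT points for the 9 called chains and Col3a1, overlap for Col1a2, Col5a1 and Col5a2, and lie below for Col1a1.

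Of the other 15 tested chains of this class, none passed the threshold. Col6a6, a further type VI chain, came closest with 4.43 and 4.13 CPM in KO and 1.42 and 2.83 CPM in WT. Its fold was 1.98 (95% confidence interval 1.16 to 3.38; edgeR adjusted p = 0.0727), and it passed by DESeq2 (adjusted p = 0.0413) and without WT replicate 2 (edgeR adjusted p = 0.0304). The fibril-associated Col12a1, Col16a1 and Col9a2 had folds of 0.990, 0.957 and 1.15. The membrane-spanning Col13a1, Col23a1 and Col17a1 had folds of 1.13, 0.881 and 0.969, and the network-forming Col8a1 and Col8a2 had 1.05 and 0.999. Col15a1, the closest relative of Col18a1, stood at 1.48 and 1.52 CPM in KO and 1.15 and 0.918 CPM in WT, a fold of 1.47 with a 95% confidence interval of 0.842 to 2.55 (edgeR adjusted p = 0.281). Col7a1, the collagen of anchoring fibrils in skin, stood at 0.731 and 0.527 CPM in KO and 0.898 and 1.19 CPM in WT, with an edgeR adjusted p of 0.237. Col9a3, Col19a1, Col20a1 and Col28a1 gave intervals that span 1. Col9a1, Col6a5, Col22a1, Col6a4 and Col10a1 did not pass the filter on low counts and had 0 to 24 reads per library, so no fold is given for them.

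Per kilobase of transcript, which allows chains to be compared with each other, the summed level of the 42 chains was 288 ± 16.4 CPM per kb in KO and 212 ± 8.62 CPM per kb in WT (SD, n = 2 each). Fibrillar chains summed to 131 ± 10.5 in KO and 115 ± 7.73 in WT, basement membrane chains to 50.2 ± 1.86 in KO and 30.9 ± 2.29 in WT, and other chains to 107 ± 4.04 in KO and 65.2 ± 3.18 in WT (CPM per kb, SD, n = 2 each). The fibrillar sums, at 124 and 138 in KO and 121 and 110 in WT, lay next to each other without overlap, whereas a wider gap parted the KO and WT sums of the other classes. As a share of the summed level, fibrillar chains made up 45.4 ± 1.05% in KO and 54.5 ± 1.43% in WT, basement membrane chains 17.4 ± 0.341% in KO and 14.6 ± 1.68% in WT, and other chains 37.2 ± 0.708% in KO and 30.8 ± 0.249% in WT (SD, n = 2 each). No test was run on these sums and shares, since the smallest two-sided p of an exact permutation test with 2 libraries per genotype is 0.333.

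The order of the chains by level per kilobase also differed. Col3a1 ranked 1 in both genotypes, at 64.1 and 75.1 CPM per kb in KO and 56.7 and 53.0 CPM per kb in WT. Col18a1 ranked 2 in KO, at 49.7 and 47.4 CPM per kb, and 3 in WT, at 25.2 and 21.7 CPM per kb. Col1a2 ranked 5 in KO, at 22.6 and 24.1 CPM per kb, and 2 in WT, at 26.6 and 23.3 CPM per kb. In WT the ranks of Col1a2, Col18a1, Col4a1 and Col14a1 rest on values that overlap between neighbours in the order, whereas in KO both values of Col18a1 were above those of Col4a1 (35.6 and 36.6 CPM per kb). Col4a1 was 3 in KO and 4 in WT, and Col4a2 was 6 in KO and 10 in WT.

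**Figure D4:**
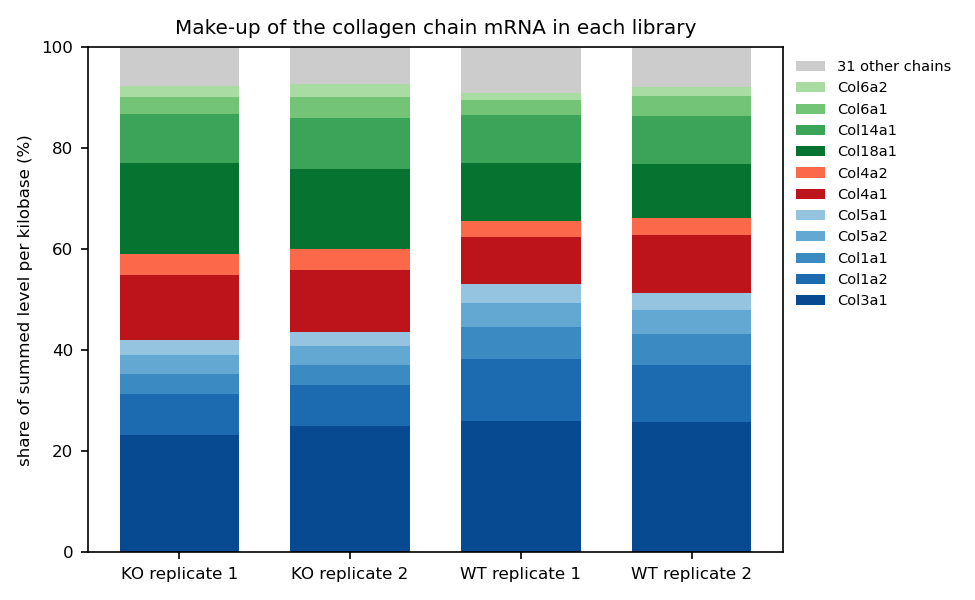
Share of the summed level per kilobase (vertical axis, %) taken by 11 named collagen chains and by the 31 other chains together, in each library. Col18a1 and Col4a1 take a larger part of the bars in the KO libraries, and Col1a1 and Col1a2 a larger part in the WT libraries.

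Chains that assemble together were set against each other within each library, as reads per kilobase. The ratio of Col1a1 to Col1a2 was 0.494 and 0.509 in KO and 0.515 and 0.541 in WT. That of Col4a1 to Col4a2 was 3.15 and 2.89 in KO and 3.03 and 3.47 in WT. For type I the KO ratios lay just below the WT ratios, and for type IV they overlapped. The ratio of Col6a1 to Col6a2 was 1.70 and 1.62 in KO and 2.19 and 2.02 in WT, and with known junction reads per junction it was 1.42 and 1.43 in KO and 1.89 and 2.05 in WT. Both measures put the KO libraries below the WT libraries. The ratio of Col4a1 to Col1a1 was 3.18 and 2.99 in KO, against 1.49 and 1.88 in WT, so that Col4a1 was further above Col1a1 in KO. That speaks of this pair and not of the classes. The ratio of Col3a1 to Col1a2, both fibrillar, was also higher in KO, at 2.83 and 3.12 against 2.14 and 2.27 in WT. Per kilobase, Col4a1 stayed below Col3a1 in every library.

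The deposited splice junction tables give a second reading of the same libraries. Reads across known junctions were summed per gene and tested in the same way. Of 27 chains that could be tested, 6 were higher in KO: Col4a1, Col4a2, Col18a1, Col14a1, Col6a1 and Col6a2. The background was 6.19% of 11247 genes higher and 10.6% called in either direction. By edgeR 0 chains were lower, and 0 were lower at an unadjusted p under 0.05. All 6 were also called on transcript reads. The count was 4 to 7 with 1 library left out: Col14a1 and Col6a1 were lost without KO replicate 2 (edgeR adjusted p = 0.177 and 0.117), and Col14a1 also without WT replicate 1 (0.0591). Col18a1 had 2232 and 2153 junction reads in KO and 792 and 1179 in WT, a fold of 1.97 after scaling (edgeR adjusted p = 0.00287). Col6a2, with 225 and 297 junction reads in KO and 70 and 129 in WT, had a fold of 2.38 (edgeR adjusted p = 0.00472). Col11a1, Col27a1 and Col25a1 had junction folds of 1.60, 1.53 and 2.24 and missed the threshold (edgeR adjusted p = 0.146, 0.188 and 0.128), with 14 to 129 junction reads per library. Col1a1 and Col1a2 had junction folds of 0.741 and 1.02 (edgeR adjusted p = 0.194 and 0.936).

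Because hnRNP L acts in splicing, diffSpliceDGE was used to test how often each known junction was used, measured against the remaining junctions of the gene. Of 520 junctions in 21 chains, 0 passed the threshold, and 2 of 103333 junctions of all genes did (0.00194%). At an unadjusted p under 0.05 there were 21 collagen junctions (4.04%), against 2.38% of all junctions tested. The smallest p belonged to a junction of Col3a1 at chr1:45396257-45396719 in the files' coordinates, with 78 and 100 reads in KO and 20 and 25 reads in WT. Its usage was higher by 1.39 on the log2 scale (unadjusted p = 0.00129; edgeR adjusted p = 0.99998). The next, in Col1a1 at chr11:94805965-94806066, had 0 and 1 reads in KO and 11 in each WT library. A tested collagen junction had a median of 36 reads over the 4 libraries.

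For 5 chains (Col18a1, Col25a1, Col2a1, Col4a5 and Col6a6) the tables hold a pair of transcripts each. Both Col18a1 transcripts had more reads in KO, with 13382 and 13690 reads on the form used here in KO against 4573 and 6775 in WT, and 11101 and 11408 on the other in KO against 3876 and 5803 in WT. These counts are not scaled to library size. Transcripts of a gene can share reads, as the identical counts of the Col2a1 pair show, so the Col18a1 forms are not separate observations. Reads on the 5′ junctions that tell the start sites of Col18a1 apart were few. The junction from the nearer upstream exon had 13 and 7 reads in KO and 2 and 3 in WT, that from the farther exon had 4 and 1 reads in KO and 0 in each WT library, and a further junction upstream of it had 1 and 3 reads in KO and 0 and 1 in WT.

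Genes whose products act on collagen were read from lists by role, whose members and results were partly known from earlier work on these data. Among the 17 tested genes of modification and folding, 5 were higher and 12 did not pass (median log2 fold change 0.43); over all tested genes 11.4% were higher, the share beside which every count of higher list genes below stands. The lysyl hydroxylase gene Plod1 had 131 and 149 CPM in KO and 66.2 and 60.1 CPM in WT, a fold of 2.21 (edgeR adjusted p = 0.00449). Lepre1, a prolyl 3-hydroxylase, had a fold of 1.90, Plod3 of 1.69 and Fkbp10, a prolyl isomerase of the collagen chaperone set, of 1.68. The collagen chaperone Serpinh1 had 178 and 168 CPM in KO and 154 and 135 CPM in WT (edgeR adjusted p = 0.156, not past the threshold). Of 7 propeptide cleavage genes, 3 were higher: the procollagen C-proteinase Bmp1 (fold 1.87) and its enhancers Pcolce (1.86) and Pcolce2 (1.66). Of 7 cross-linking genes, 2 were higher: the lysyl oxidase relative Loxl2 (1.88) and peroxidasin, Pxdn, which links type IV collagen (1.66). Lox itself had 10.7 and 12.1 CPM in KO and 12.9 and 13.7 CPM in WT (edgeR adjusted p = 0.338).

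Of 10 tested collagen receptors, the integrin chains Itga1 (1.41-fold) and Itga2 (1.53-fold) were higher. That is 2 of 10, against 11.4% of all tested genes, and 13.9% of those with a mean log2 CPM of 2 or more. Both calls were lost whichever library was left out. The receptor that passed in such a fit was Ddr2, which was not called with all 4 libraries. Itgb1, the β1 chain they pair with, had 585 and 548 CPM in KO and 549 and 590 CPM in WT, with overlapping groups. Of 12 tested genes of collagen breakdown and its inhibition, 7 were higher, against 11.4% of all tested genes. Mmp9, a gelatinase of granulocytes and other cells, had 6.10 and 11.1 CPM in KO and 1.42 and 2.00 CPM in WT, a fold of 4.97 (edgeR adjusted p = 0.00859). The membrane-bound collagenase Mmp14 rose 2.33-fold and the inhibitors Timp3 and Timp2 rose 2.53-fold and 1.57-fold. The higher genes thus included both enzymes that cut collagen and inhibitors of such enzymes.

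Of 15 tested partners of type IV collagen in the basement membrane, 7 were higher and 8 did not pass (median log2 fold change 0.41), against 11.4% higher of all tested genes. The nidogen Nid1, which bridges laminin and type IV collagen, had 154 and 171 CPM in KO and 94.1 and 89.8 CPM in WT, a fold of 1.77 (edgeR adjusted p = 0.00756). Nid2 was 1.83-fold higher, the perlecan gene Hspg2 1.83-fold and the laminin chain gene Lamb2 2.06-fold. These folds lie beside those of Col4a1 (1.64) and Col4a2 (1.77). Lama4, a laminin chain of vessels, did not pass, with 14.6 and 14.9 CPM in KO and 15.4 and 15.9 CPM in WT. Of 20 tested proteins associated with fibrils, 6 were higher, against 11.4% of all tested genes. Fibronectin, Fn1, had 1548 and 1631 CPM in KO and 512 and 561 CPM in WT, a fold of 2.96 (edgeR adjusted p = 0.00449). The small proteoglycan genes Bgn and Prelp rose 2.56-fold and 2.55-fold and Fbln1 rose 1.60-fold, while the decorin gene Dcn, at 96.5 and 109 CPM in KO and 90.9 and 75.0 CPM in WT, did not pass (edgeR adjusted p = 0.126). Aspn, the asporin gene, chosen after its values were seen, had 0.334 and 0.351 CPM in KO and 0.960 and 0.936 CPM in WT (edgeR adjusted p = 0.0519). With 1 library left out the higher count was 6 to 7 for the basement membrane list, 3 to 5 for the fibril-associated and breakdown lists, 3 to 4 for modification and folding, 1 to 2 for propeptide cleavage, 0 to 1 for receptors and 2 for cross-linking.

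**Figure D5:**
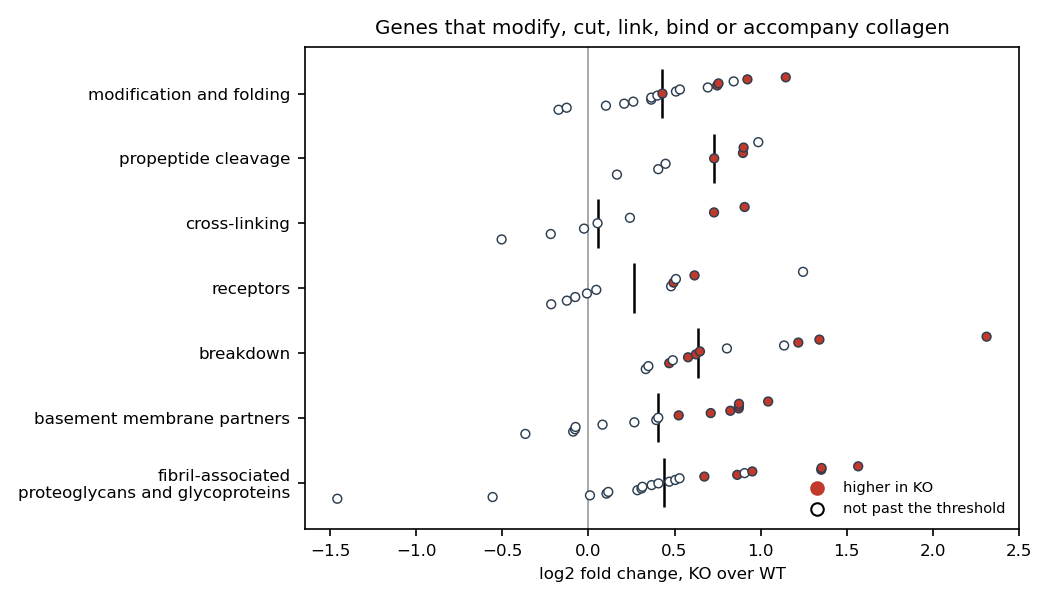
Log2 fold change of KO over WT (horizontal axis) of the tested genes of 7 lists (rows) that modify, cut, link, bind or accompany collagen, filled where higher in KO, with a line at the list's median. Every median lies right of 0, from 0.05 for cross-linking to 0.73 for propeptide cleavage.

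Markers of some cell types were higher along with the chains, while others were lower or did not pass, and their part in the results was not tested. Of 13 tested endothelial markers 8 were higher in KO, where 11.4% of all tested genes were higher and 9.44% lower, and their summed level was 1026 and 1068 CPM in KO against 639 and 701 CPM in WT. Those with the smallest p were Esam (2.58-fold), Stab1 (2.17-fold), Eng (1.90-fold) and Stab2 (2.00-fold), the stabilins being genes of sinusoidal endothelium. Of 15 tested stellate and mesenchymal markers 5 were higher, led by Pdgfrb (1.98) and Ngfr (2.06), and 2, the contractile genes Acta2 and Tagln, were lower (0.644 and 0.639). That list summed to 1426 and 1577 CPM in KO against 965 and 937 CPM in WT. Reln alone gave 1088 and 1207 CPM in KO and 685 and 670 CPM in WT, and the other markers summed to 338 and 370 CPM in KO and 280 and 267 CPM in WT. Dcn and Lum, which are also on the list of fibril-associated genes, missed the threshold. With 1 library left out, 4 to 8 endothelial and 2 to 5 stellate markers were higher, and the lower calls of both contractile genes were lost without KO replicate 1, KO replicate 2 or WT replicate 2, and 1 of them without WT replicate 1. Of 10 tested hepatocyte markers 4 were higher, and fewer were without KO replicate 1, KO replicate 2 or WT replicate 2. The hepatocyte list summed to 83799 and 69788 CPM in KO against 55004 and 40463 CPM in WT. Alb and Afp made up most of that sum in every library, and neither passed the threshold (edgeR adjusted p = 0.132 and 0.0883). Megakaryocyte markers summed to 1118 and 927 CPM in KO against 596 and 641 CPM in WT (5 of 7 higher). Alas2, which encodes the heme synthesis enzyme of erythroid cells, had 1924 and 1530 CPM in KO against 2869 and 2692 CPM in WT, a fold of 0.621 (edgeR adjusted p = 0.0379), and the call did not hold in every fit with 1 library left out (edgeR adjusted p up to 0.126).

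Mesothelial and cartilage markers were low. Mesothelial markers summed to 30.6 and 33.6 CPM in KO and 31.4 and 27.1 CPM in WT, and of 7 tested 0 passed by edgeR or DESeq2 and 0 had an unadjusted p under 0.05. Cartilage markers summed to 8.17 and 7.20 CPM in KO and 6.04 and 5.51 CPM in WT, with 7 of 9 under 1 CPM in every library, and of the 4 tested only Matn1 was higher. Bone markers summed to 33.0 and 33.4 CPM in KO and 14.7 and 12.9 CPM in WT, of which Alpl made up 30.8 and 30.6 CPM in KO and 12.2 and 10.4 CPM in WT, while Bglap2 was at 0 in every library. Cardiac muscle markers were lower in KO (10 of 12 tested, 6 to 12 with 1 library left out, against 9.44% of all tested genes), at a summed 12.1 and 28.1 CPM in KO against 76.6 and 416 CPM in WT, so WT replicate 2 carried most of these reads, at a sum above the level of Col3a1 in that library (295 CPM). Without WT replicate 2 the folds of Col4a1, Col4a2 and Col18a1 on the log2 scale were 0.82, 0.84 and 0.95. WT replicate 1, left in that fit, also had a higher cardiac sum (76.6 CPM) than either KO library. The fit therefore does not remove the cardiac difference, and its part in the chain results was not tested.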

How the data were processed

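RNA was extracted from fetal liver cells, depleted of ribosomal RNA, cut with RNase III and sequenced on beads, per the labels' protocols. Each slide held 2 libraries; the labels do not say which, so an effect of the slide was not tested. The authors deposited the raw count of reads per RefSeq transcript per the file headers, counting primary alignments of mapping quality 10 or more. RPKM values and reads per nucleotide (a coverage signal), both deposited, were recomputed from the counts and matched, and entered no test. A second deposited table gives the count of reads per splice junction, marked known or putative. Neither the aligner nor the build is given in the sources used here. Nothing states that strand was used in counting, and genes that overlap, antisense ones too, may share reads.

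Of 28283 transcript rows, 1 transcript per gene, that with most reads, gave 22011 genes. Levels were tested with edgeR 4.0.16 (R 4.3.3): TMM scaling, filterByExpr, quasi-likelihood test on 2 KO and 2 WT libraries, Benjamini-Hochberg adjustment over 15029 genes, threshold 0.05. Known junction reads per gene were tested alike over 11247 genes. Junction usage was tested with diffSpliceDGE on known junctions that had 10 or more reads in all, where a gene had 2 or more such junctions. The steps were tested on simulated counts. Intervals are 95% confidence intervals of the fitted fold change. Alternatives were DESeq2 1.42.0, its size factors, no filter, summed transcripts, a replicate block, a minimum of 30 reads per junction, mapped reads as library size, and leaving out each library. The collagen chains and the 17 gene lists were chosen with earlier results of these data known. Every chain is accounted for; called chains and the 3 most abundant of each class are given in full, with up to 4 called members of a list in each direction, by p. Genes outside that rule (such as Serpinh1, Lox, Lama4 and Dcn) were chosen after their values were seen. The erythroid list as a whole is not reported here. Of the listed symbols, Mia3, Lamb1-1 and Snorc matched no gene.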

Additional observations from a re-analysis of the deposited data

Results flagged for a closer look

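Junctions marked putative entered no comparison above. Over the 42 chains, 2221 such junctions in 39 chains carried reads, 1193 and 1330 reads in the KO libraries and 1017 and 1440 in the WT libraries. Col3a1 was the only chain with at least 100 putative reads in all whose rate was higher in both KO libraries than in both WT libraries. It had 30.8 and 58.6 putative junction reads per 1e+06 known junction reads of all genes in KO, against 19.7 and 23.4 in WT. These reads lie outside the main measurement, and no test was run on them. Col1a1 went the other way, with 13.6 and 12.7 in KO and 19.3 and 17.6 in WT, as did Col7a1 and Col5a3. Col18a1, under the minimum of 100 reads, was also higher in KO, at 4.75 and 3.89 against 2.05 and 1.74 in WT. The rate is taken on known junction reads of all genes, so it is not set against the gene's own level. Col18a1 had 34 and 27 putative reads beside 2232 and 2153 known junction reads in KO. In WT it had 10 and 15 putative reads beside 792 and 1179 known ones. Over all genes WT replicate 1 had more putative reads per known read than the other 3 libraries. For Col3a1 these were 220 and 407 reads in KO and 96 and 202 reads in WT, spread over 133 junctions. The Col3a1 transcript itself had 357 and 418 CPM in KO and 316 and 295 CPM in WT, and how far its level goes with the putative reads was not tested.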

How the results depend on the processing

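The 9 chains higher in KO were 8 with summed transcripts, 9 with DESeq2 size factors, 10 with no filter and by the DESeq2 Wald test (both adding Col6a6), and 3 to 7 with 1 library left out. Genes past the threshold numbered 3127, and 1022 to 2495 with 1 library left out. On junction reads 4 to 7 chains were higher with 1 library left out. The count of chains lower on junction reads was 0 to 1 with 1 library left out, the 1 being Col23a1 without WT replicate 2. With the number shared by 1 library of each genotype as a replicate block, 10 chains (Col6a6 added) and 4335 genes passed. What that number marks is not given, and with 2 pairs a pairing could not be established. No other call of a chain moved under the block.

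Leaving out a library changed the sign of the log2 fold change of uncalled chains: Col4a5 (-0.0959 to 0.0109), Col4a6 (-0.13 to 0.25), Col4a4 (-0.36 to 0.63), Col24a1 (-0.22 to 0.87), Col5a3 (-0.23 to 1.07), Col16a1 (-0.152 to 0.0177), Col12a1 (-0.27 to 0.29), Col13a1 (-0.35 to 0.92), Col8a2 (-0.16 to 0.17), Col9a3 (-0.97 to 0.65), Col23a1 (-0.62 to 0.14), Col8a1 (-0.0936 to 0.204), Col17a1 (-0.34 to 0.19), Col28a1 (-0.607 to 0.0193) and Col19a1 (-2.71 to 0.0191), and on junction reads Col4a5 (-0.22 to 0.25) and Col1a2 (-0.10 to 0.14). Under the replicate block Col12a1 was at 0.0090 and Col8a2 at 0.0045, and with no filter Col8a2 was at 0.0070. The cause was not tested.

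With mapped reads as library size the summed level was 148 per kb in KO and 102 in WT. Fewer reads fell on the transcripts used than were mapped, and this setting leaves out TMM scaling. On junction reads per junction the ratio of Col1a1 to Col1a2 was 0.216 in KO and 0.294 in WT, and that of Col4a1 to Col4a2 was 6.62 in KO and 6.93 in WT. Calls of Col4a2 and Col18a1 held under every alternative run. Chains under about 1 CPM have wide intervals, and changes of their size were not detectable at this depth.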

Other observations

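Matn1, which encodes the cartilage matrix protein matrilin 1, was chosen here after its values were seen. It had 132 and 149 reads in the KO libraries, against 2 and 3 reads in the WT libraries, and 19 and 12 reads across its known junctions in KO against 0 in each WT library. The call passed on transcript reads (edgeR adjusted p = 0.00418) and on junction reads (edgeR adjusted p = 0.0162). The cartilage collagen Col2a1 had 28 and 27 reads in KO and 21 and 44 reads in WT, and Acan, the main cartilage proteoglycan, stood at 0.209 and 0.0390 CPM in KO and 0.124 and 0.144 CPM in WT.

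Over all chains, putative junctions had 167 and 192 reads per 1e+06 known junction reads in KO and 209 and 167 in WT, and the groups overlapped. WT replicate 1 stood apart in putative reads of all genes, with 3.12 per 100 known junction reads, against 0.672 and 0.647 in the KO libraries and 0.730 in WT replicate 2.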
